A study of Drosophila melanogaster with 2 samples.

Results

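Serpins and serine proteases with their inactive homologs were followed in the heads of female fruit flies (Drosophila melanogaster) shortly after sedation with ethanol vapour. The members are the genes whose RefSeq symbol begins with SPH, Spn, Ser, Jon or SP followed by a digit. Of 11256 genes in the deposited tables, 30 matched: 1 SPH gene, 20 Spn genes, 1 Ser gene, 5 Jon genes and 3 SP genes. The annotation holds 22 further genes with such symbols, which had no row in the deposited tables. With at least 50 reads over both libraries counted as measured, 14 of the 30 members were measured. Among the 14 were all 3 SP genes, whose symbols are not confined to serpins or serine proteases.

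The ethanol group was wild-type Canton-S females aged 3 to 5 days, exposed to air saturated with ethanol for 15 min, by which time all were sedated, and then to clean air for 30 min. The control group was of the same strain, sex and age and received 45 min of clean air. Each group was 1 pool of about 180 flies sequenced as 1 poly(A) RNA library, so no comparison could be checked against replicates and none carries a p-value. The ethanol library held 11027646 assigned reads and the control library 11763222. A gene with no read could still have up to 0.272 RPM (reads scaled by the library's total) in the ethanol library and 0.255 RPM in the control library, the limit that 3 reads set. Each ratio is of ethanol over control, with reads divided by the total of their library, and its 95% interval was taken by the Clopper-Pearson method. Intervals hold counting error alone and leave out how far separate pools of flies would differ. A gene was called higher or lower when it was measured, at least 2-fold different and had an interval that excluded 1. The head label fitted its markers, with 7 of 8 neuron and photoreceptor genes measured and ninaE, the main rhodopsin gene, at 452455 reads in the ethanol library and 546212 in the control library.

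Serine proteases cut other proteins with a catalytic serine, and in insect blood they act in chains in which each protease activates the next. Such chains lead to the Toll ligand Spätzle, which switches on antimicrobial peptide genes, and to melanization, the blackening of wounds and microbes by phenoloxidase. Serine protease homologs keep the protease fold but lack a catalytic residue and act as cofactors or regulators. Serpins are the inhibitors: a protease that cuts the exposed loop of a serpin becomes trapped on it. Jonah (Jon) genes encode digestive proteases of the gut. The fat body, which also lines the fly head, is a main source of blood proteins in adults.

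SPH93 (NM_135996), the 1 SPH gene among the members, rose 36.8-fold after ethanol, and the serpins as a family stayed close to their control levels. Of the 14 measured members, 2 were called higher, SPH93 and SP1173, where 1.75% of all 7822 measured genes were called higher. None of the 14 was called lower, where 0.741% of measured genes were. The members were chosen with earlier results of these data known, so setting their calls beside all measured genes cannot test for enrichment. SPH93, with 18 reads in the control library, passed the read floor through its 621 reads in the ethanol library. The symbol of SP1173 is of the kind not confined to serpins or serine proteases. The median log2 ratio of the measured members was 0.13, against 0.049 for all measured genes. The measured members had a median length of 1574 nt, against 1934 nt for all measured genes. Measured genes of 1000 to 2000 nt had a median log2 ratio of 0.093, and the part of length in the median of the members was not tested. Within 1.5-fold lay 12 of the 14 members, and 90.2% of all measured genes.

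SPH93 had 621 reads in the ethanol library, against 18 in the control library, with an interval of the ratio from 23.1 to 62.5. The ethanol count was far above the control count, and no measured gene of the series had a larger ratio. Per length, its level was 35.6 RPKM (reads scaled by transcript length and by the library's total) in the ethanol library and 0.968 RPKM in the control library. These levels put it 5th of the 30 members in the ethanol library and 12th in the control library. Among all 11256 genes, its RPKM lay at percentile 83.6 in the ethanol library and at percentile 30.0 in the control library. SPH93 took 7.26% of all member reads after ethanol, against 0.220% in the control.

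**Figure D1:**
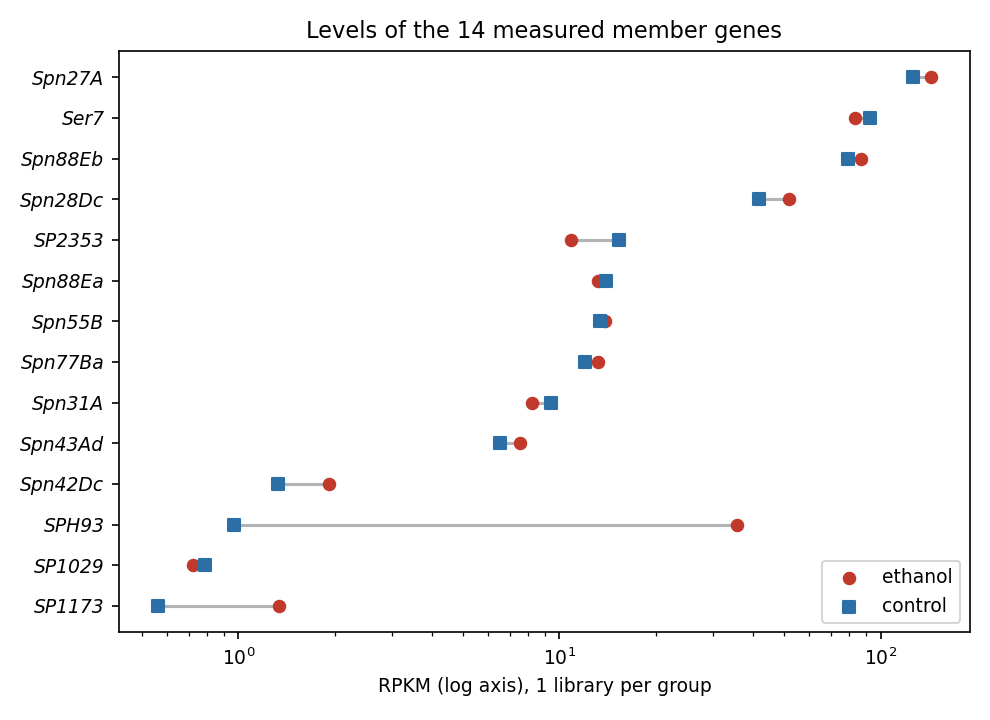
Level of each of the 14 measured members in RPKM on a log axis, with ethanol as circles and control as squares, 1 library each. SPH93 stands at 35.6 RPKM in the ethanol library and 0.968 in the control library, whereas most serpins lie nearly on top of their control value.

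SPH93 supplied most of the family's difference. All 30 members together had 8558 reads in the ethanol library and 8184 in the control library, a ratio of 1.12 (interval 1.08 to 1.15). Without SPH93, the other 29 members had 7937 reads in the ethanol library and 8166 in the control library, a ratio of 1.04 (interval 1.01 to 1.07).

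**Figure D2:**
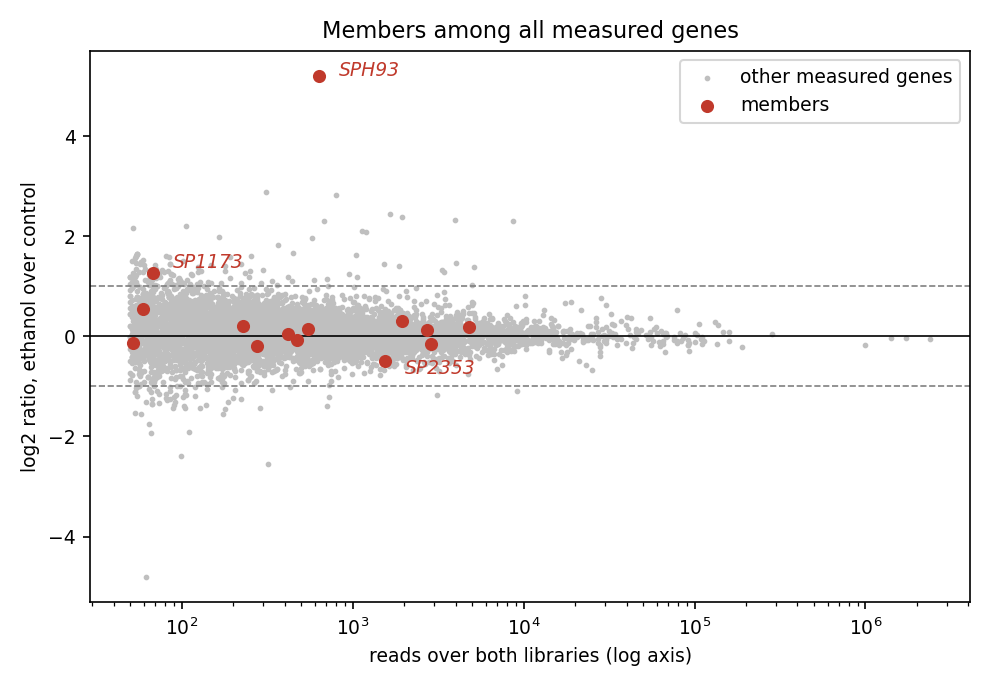
Log2 ratio of ethanol over control against reads over both libraries (log axis) for the 7822 measured genes in grey and the 14 measured members in red, with dashed lines at 2-fold. SPH93, at a log2 ratio of 5.20, lies above every other gene plotted, and 12 of the 14 members lie between the dashed lines.

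The reads of SPH93 were spread along the transcript. They covered 97.7% of its 1581 nt in the ethanol library and 52.4% in the control library, where 18 reads covered 829 nt. In the control library, 121 accessions of 1400 to 1800 nt with 15 to 25 reads were covered over a median of 29.1%, so the few control reads of SPH93 were less piled up than is usual at that count. SPH93 has 1 annotated transcript, and that accession was the one counted.

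In the Release 6 annotation, SPH93 lies within the span of CG5050, a gene on the other strand. Beyond a noncoding gene on its left side lies dl, which encodes the Toll-regulated transcription factor Dorsal, and on its right side lie CG18563 and then BicD. CG5050 had 6 reads in the ethanol library and 2 in the control library, far fewer than SPH93. For dl there were 523 reads in the ethanol library and 596 in the control library (log2 ratio -0.10, interval -0.27 to 0.08), and for BicD 1059 in the ethanol library and 1088 in the control library (0.05, interval -0.07 to 0.18). Strand use in the counting is not stated, so reads of SPH93 and CG5050 cannot be told apart where they overlap. CG18563 is listed in RefSeq under the synonym SPH156 and is on the same strand as SPH93. It had 23 reads in the ethanol library and 2 in the control library, a ratio of 12.3 (interval 3.03 to 107), and was under the floor of 50 reads. It was singled out after its values were seen.

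SP1173 (NM_168176) was the other member called higher, on few reads. It had 47 reads in the ethanol library, against 21 in the control library, a 2.39-fold difference (interval 1.40 to 4.20). Its level per length was 1.34 RPKM in the ethanol library and 0.561 RPKM in the control library. The reads covered 11.8% of its 3183 nt in the ethanol library and 11.7% in the control library, which is 376 nt and 371 nt of the transcript.
Of its 4 annotated transcripts, 1 was counted. Among accessions of 3000 to 3500 nt with 40 to 60 ethanol reads, the median covered length was 17.6% (82 accessions), so narrow coverage was common at that size. With a pseudocount of 1 RPKM its log2 ratio was 0.58 and the call was lost. Its symbol matches the naming rule, but the symbols of SP and a number are not confined to proteases or serpins.

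**Figure D3:**
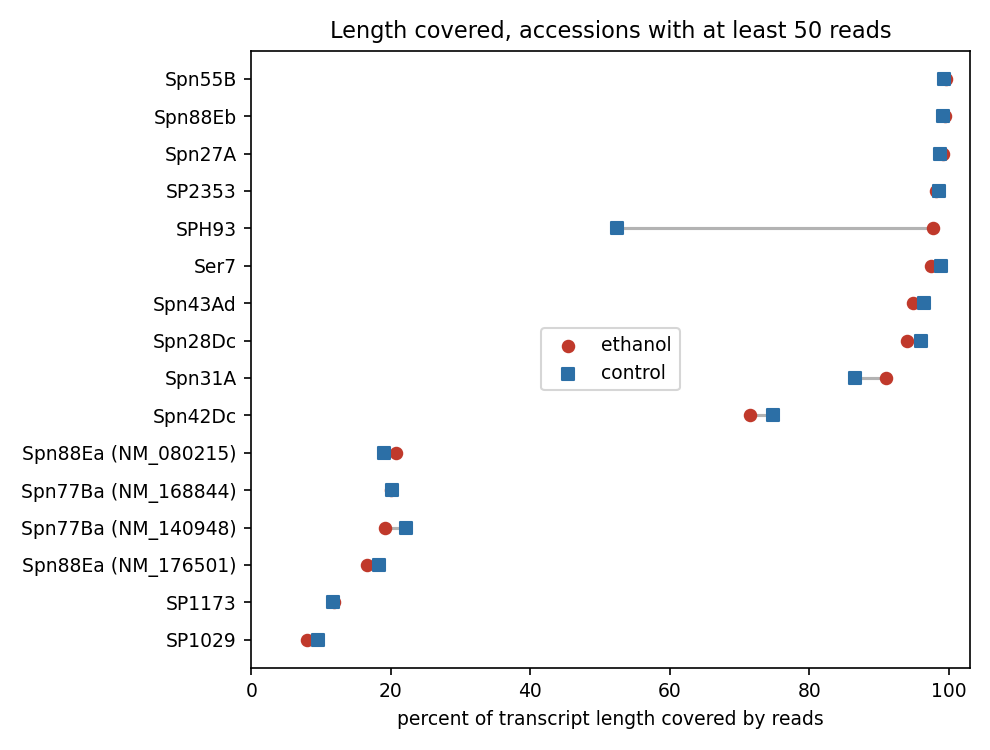
Percent of transcript length covered by reads for member accessions with at least 50 reads over both libraries, ethanol as circles and control as squares. SPH93 is at 97.7% in the ethanol library and 52.4% in the control library, most serpins are above 85% in either, and Spn77Ba, Spn88Ea, SP1173 and SP1029 stay under 25%.

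Among the serpins that restrain melanization, Spn27A and Spn28Dc were slightly higher after ethanol, below the 2-fold rule. Spn27A (NM_143767), which limits phenoloxidase activation in the blood and acts on the Toll-activating protease easter in the embryo, had 2483 reads in the ethanol library and 2334 in the control library (log2 ratio 0.18, interval 0.10 to 0.26). At 143.7 RPKM in the ethanol library and 126.6 RPKM in the control library, it was the most abundant member per length in either. Its span overlaps cup and CG34310 on the other strand, small beside its own counts: cup had 52 reads in the ethanol library and 61 in the control library, and CG34310 had 77 in the ethanol library and 97 in the control library.
Spn28Dc (NM_135328), which limits melanization at wounds, had 1047 reads in the ethanol library and 902 in the control library (log2 ratio 0.31, interval 0.18 to 0.44). This was the largest ratio among the members with over 1000 reads, of which there were 5. Spn77Ba, the inhibitor that keeps melanization out of the tracheae, had 278 reads in the ethanol library and 269 in the control library (log2 ratio 0.14, interval -0.11 to 0.39). Its 2 counted accessions had log2 ratios of 0.22 (190 ethanol and 174 control reads) and -0.02 (88 ethanol and 95 control reads), and both intervals included 0. In the ethanol library they were covered over 20.1% and 19.1% of their length. Accessions of 1400 to 2000 nt with 150 to 250 ethanol reads had a median of 94.7%. The counts of Spn77Ba thus came from a small part of its transcripts.

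The next serpins have roles in Toll signalling or lie beside one that does, and none reached 2-fold. Spn88Ea, a negative regulator of Toll signalling, had 221 reads in the ethanol library and 249 in the control library (log2 ratio -0.08, interval -0.35 to 0.19). Its 2 counted accessions had log2 ratios of -0.06 and -0.21, and were covered over 20.7% and 16.6% of their length in the ethanol library. The counts of Spn88Ea, like those of Spn77Ba, thus came from a small part of its transcripts. Its neighbour on the chromosome, Spn88Eb (NM_142170), was among the most abundant members, at 86.6 RPKM in the ethanol library and 79.2 RPKM in the control library. Spn88Eb had 1374 reads in the ethanol library and 1340 in the control library (log2 ratio 0.13, interval 0.02 to 0.24). With each of the 3 other scalings its interval included 0, as with TMM (-0.03 to 0.19). The serpin nec (necrotic), which holds back Toll activation by the protease Persephone, falls outside the naming rule. It had 5844 reads in the ethanol library and 6666 in the control library (log2 ratio -0.10, interval -0.15 to -0.05).

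The remaining measured serpins had intervals that included a ratio of 1. Spn55B had 205 reads in the ethanol library and 211 in the control library (log2 ratio 0.05, which was -0.01 with median-of-ratios scaling). Spn31A had 124 in the ethanol library and 152 in the control library (-0.20, interval -0.55 to 0.15). Spn43Ad had 119 in the ethanol library and 110 in the control library (0.21, interval -0.18 to 0.59). It overlaps pk, which had 55 in the ethanol library and 65 in the control library. For Spn42Dc, with 34 reads in the ethanol library and 25 in the control library (0.54, interval -0.25 to 1.34), the depth was too low to detect a difference of this size. Over the 9 measured serpins, 0 were called in either direction, the log2 ratios ran from -0.20 to 0.54 and the median was 0.14. As a sum, the 20 serpins had 5925 reads in the ethanol library and 5622 in the control library (ratio 1.12, interval 1.08 to 1.17).

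**Figure D4:**
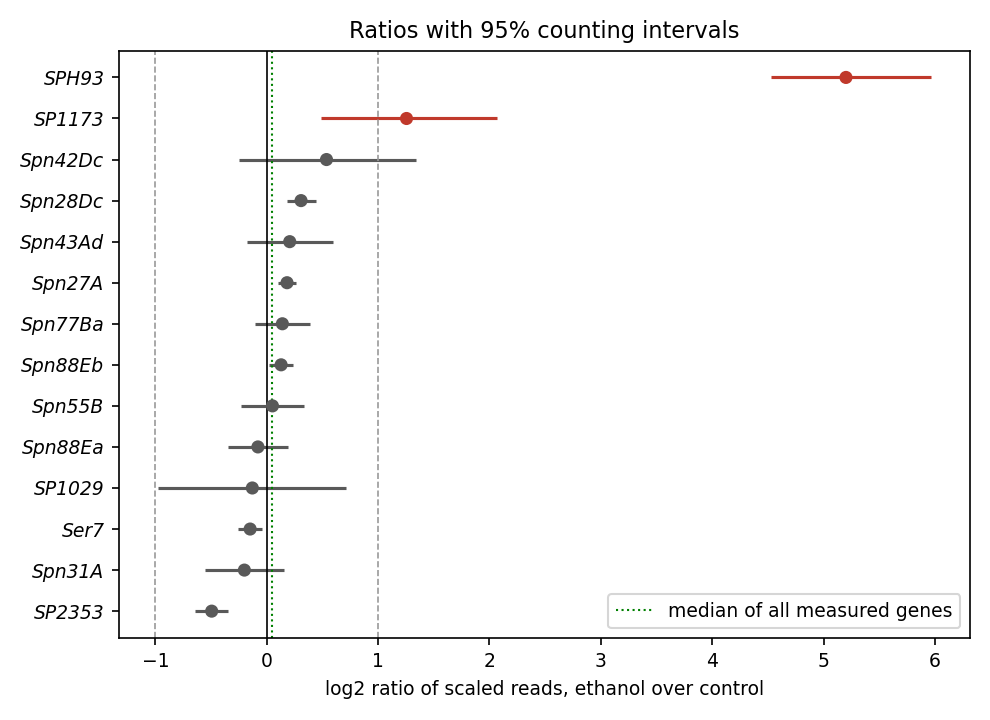
Log2 ratio of ethanol over control for the 14 measured members (points) with 95% Clopper-Pearson intervals (bars), called members in red, dashed lines at 2-fold and a dotted line at the median of all measured genes. SPH93 and SP1173 lie past the 2-fold line, and the intervals of 7 members include 0.

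Ser7 (NM_132354), the 1 Ser gene among the members, was slightly lower after ethanol and did not reach 2-fold. RefSeq lists it under c-SP3, a name for proteases with a clip domain, the regulatory segment found in blood protease chains. It had 1314 reads in the ethanol library and 1554 in the control library (log2 ratio -0.15, interval -0.26 to -0.04). Its level was 83.4 RPKM in the ethanol library and 92.5 RPKM in the control library. In the order of levels per length, Spn88Eb and Ser7 stood differently in the libraries, with Spn88Eb the higher of the pair after ethanol and Ser7 the higher in the control.

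SP2353 and SP1029 complete the measured members. SP2353 (NM_137238), listed in RefSeq under the synonym Hspg2, had 621 reads in the ethanol library and 933 in the control library, a log2 ratio of -0.49 (interval -0.64 to -0.35) that did not reach 2-fold. At 5166 nt it is the longest member. Measured genes of at least 5000 nt had a median log2 ratio of -0.23 (612 genes, 5th to 95th percentile -0.80 to 0.32), against 0.09 for those of 1000 to 2000 nt. RNA integrity numbers, on a scale from 1 to 10, were 6.40 for the ethanol sample and 6.80 for the control sample. The part of length and RNA quality in the value of SP2353 was not tested. SP1029, related to aminopeptidases rather than serine proteases, had 24 reads in the ethanol library and 28 in the control library (-0.13, interval -0.98 to 0.71).

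Over all sizes of difference, 5 of the 14 measured members had an interval above 1 (SPH93, SP1173, Spn28Dc, Spn27A and Spn88Eb), where 23.9% of measured genes did. Intervals below 1 were found for 2 (SP2353 and Ser7), where 15.0% of measured genes had one. With each of the 3 other scalings, 4 members had intervals above 1, without Spn88Eb, and 2 below. In the authors' deposited table, 7 of the 33 member accessions had a false discovery rate under 0.05, where 17.6% of all accessions did. The 7 were SPH93, SP1173, SP2353, Spn27A, Spn28Dc, Ser7 and Spn85F. That rate compares these libraries, not the conditions.

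The 16 members under 50 reads had 1 to 17 reads over both libraries, 13 of them under 10. Of the 16, 10 had more reads in the ethanol library and 6 had more in the control library. Of all 3434 genes under 50 reads, 45.8% had more reads in the ethanol library. Intervals lay above 1 for 2 members, Spn43Aa and Spn42De, where 6.17% of all genes under 50 reads had such an interval. Spn43Aa had 10 reads in the ethanol library and 2 in the control library (log2 ratio 2.42, interval 0.18 to 5.65). Spn42De had 8 in the ethanol library and 1 in the control library (log2 ratio 3.09, interval 0.19 to 8.56).
Intervals lay below 1 for another 2, Spn85F and Spn77Bc, where 4.19% of genes under 50 reads had one. Spn85F had 0 reads in the ethanol library and 10 in the control library, and the upper end of its log2 interval was -1.07. Spn77Bc had 0 in the ethanol library and 6 in the control library, and its upper end was -0.14. These 4 were named after their values were seen.

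Several serpin genes lie side by side. The Spn42D group of 5 adjacent genes, picked out after its values were seen, had rows for 3: Spn42Da, an inhibitor of furin-type proteases, Spn42Dc and Spn42De. Each had more reads in the ethanol library, and together they had 53 reads there and 32 in the control library (ratio 1.77, interval 1.12 to 2.83). Spn42Da itself had 11 reads in the ethanol library and 6 in the control library, counted on 1 of its 11 annotated transcripts. Spn42Dc overlaps Spn42Dd, so reads in the shared stretch are uncertain. In the Spn77B group, Spn77Ba had most reads and a log2 ratio of 0.14, and Spn77Bc had reads in the control library only. Copies within a group resemble each other, and the counts are of unique reads, per the file headers, so reads that fit more than 1 copy may be missing from them.

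Jonah genes were barely detected in the head libraries. The 5 with a row, of 16 annotated, had 6 reads in the ethanol library and 8 in the control library (ratio 0.80, interval 0.23 to 2.63), too few to show a difference. Jon44E had 3 reads in the ethanol library and 2 in the control library, and its span overlaps CG8586, which had 1949 reads in the ethanol library and 1915 in the control library. Jon99Ciii and Jon99Ci, which lie on either side of Jon99Cii, had 0 reads each in the ethanol library, while the control library had 4 for Jon99Ciii and 2 for Jon99Ci. Digestive trypsin genes were also low. Of 13 listed, 2 had a row: Try29F had 15 reads in the ethanol library and 8 in the control library, and iotaTry had 5 in the ethanol library and 2 in the control library. Gut markers were present only through carbohydrases, with Amy-d at 616 reads in the ethanol library and 736 in the control library, while mag, LManVI, Npc1b, Mal-A2 and Vha100-4 had 8 reads or fewer in either.

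In 4 lists of proteases, receptors and enzymes around these inhibitors, no measured gene was called in either direction. Of all measured genes, 1.75% were called higher and 0.741% lower. With 7 to 12 measured genes in each list, 0 calls is near those shares. Among 63 measured genes with an SP or SPH number as a synonym, a list drawn up after the tables had been seen, 1 was called higher (CG11529) and 1 lower (CG32260). In the list of the Toll protease cascade and receptor complex, 12 of 16 genes were measured, 0 were called and the median log2 ratio was 0.10. PGRP-SA, which recognises bacterial peptidoglycan, was at 0.39 (315 reads in the ethanol library and 256 in the control library) and the glucan sensor GNBP3 at 0.19. The receptor gene Tl was at 0.33 on few reads, 33 in the ethanol library and 28 in the control library (interval -0.44 to 1.11). In the list of Toll signalling inside the cell, 7 genes were measured, 0 were called and the median was 0.0018. The NF-κB factor Dif was at 0.28, the adaptor Myd88 at -0.13 and the kinase pll at 0.12. The intervals of Myd88 (-0.27 to 0.02) and pll (-0.15 to 0.38) included 0.
In the melanization list, 7 of 9 genes were measured, 0 were called and the median was -0.03. Ddc and ple, enzymes of dopamine synthesis, were at 0.83 (541 reads in the ethanol library and 325 in the control library) and 0.35, and the clip protease MP1 at -0.33. The prophenoloxidase genes PPO1 and PPO2, named after their values were seen, were at -0.14 and -0.13. Other named serine proteases had 12 measured genes, 0 calls and a median of 0.10, with Corin at -0.68, scaf at -0.60 and the furin gene Fur1 at 0.28. The interval of Fur1 (-0.01 to 0.56) included 0.

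**Figure D5:**
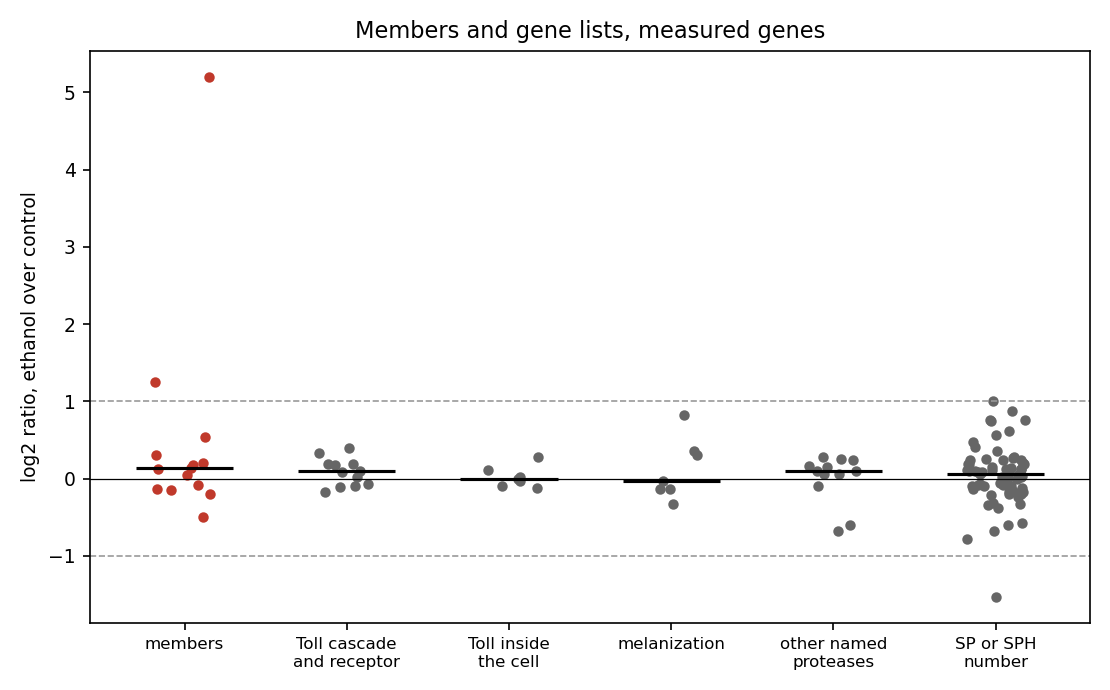
Log2 ratio of ethanol over control for the measured members (red) and the measured genes of 5 lists (grey), with black bars at medians and dashed lines at 2-fold. Horizontal scatter within a column carries no meaning, and some genes are in more than 1 list. SPH93 and SP1173 are the members past the upper dashed line, and the medians of the lists lie between -0.03 and 0.10.

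In bulk heads, fewer cells of a type and less RNA per cell cannot be told apart. The fat body markers, of which 7 of 8 had a row and 6 were measured, summed to 246965 RPM in the ethanol library and 254685 in the control library, with 0 calls and a median log2 ratio of -0.04. Most of that sum came from the yolk protein genes Yp1, Yp2 and Yp3. Among the 6, the gene to had an interval above 1 (log2 ratio 0.82). The other 5 had intervals below 1, with Lsp2 at -0.21 and apolpp at -0.22. Hemocyte markers (8 of 8 with a row, 6 measured) summed to 505 RPM in the ethanol library and 625 in the control library, with 1 lower call, Col4a1, and a median of -0.32. Of the 6, 4 had intervals below 1: Col4a1 (log2 ratio -1.31, 5944 nt), eater (-0.58, 3241 nt), vkg (-0.34, 6343 nt) and Hml (-0.31, 11768 nt). NimC1 (0.01, 2040 nt) and srp (0.19, 4416 nt) had intervals that included 1. Measured genes of at least 5000 nt had a median log2 ratio of -0.23, and the part of length in the hemocyte values was not tested. Muscle markers (7 of 8 with a row) summed to 1331 RPM in the ethanol library and 1781 in the control library, with 1 higher call, fln, and a median of -0.44. The part of these cell types in the values of SPH93 and the serpins was not tested.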

How the data were processed

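Per the file headers, the authors deposited unique read counts, the percent of length covered and RPKM for each RefSeq accession. Their table of the series repeats the counts and adds a log2 ratio, p-value and false discovery rate by the authors, per the file headers. Build BDGP 5 was used, per the submitters' processing notes. Not given in the sources used here are the aligner, the counting tool and the authors' test.

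Of 15090 accessions, 14521 had a gene in the Release 6 annotation, which served for names, neighbours, strand and transcript numbers only because the builds differ. The 569 unmatched accessions took 0.577% of ethanol and 0.599% of control reads. Reads and RPKM were summed per gene. Each table row had at least 1 read in a library. Ratios used library totals, with Clopper-Pearson intervals at 95% (scipy 1.17.1). The calls and intervals were tried on simulated counts with counting error only, which cannot show how far pools of flies differ. Every member with at least 50 reads was named, with up to 3 genes of the largest ratio from each list. Members and lists were chosen with earlier results of these data known. Alternatives were TMM (edgeR 4.0.16), median-of-ratios and totals without the 10 most abundant genes, other floors, folds, intervals and pseudocounts, transcript rows, and other memberships. No sequences were used here.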

Additional observations from a re-analysis of the deposited data

How the results depend on the processing

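The count of 2 members called higher and 0 lower was the same with TMM, median-of-ratios and reduced-total scaling. It was also the same with a 1.5-fold threshold, a stricter interval, a pseudocount of 0.1 RPKM and transcript rows. A floor of 20 reads and genes with 1 accession gave this count too, but neither could change it. Members under 50 reads had at most 17 reads, and the genes with more than 1 accession were not called. With a floor of 200 reads, a pseudocount of 1 RPKM, or without SP-numbered symbols, 1 was called higher, SPH93 (log2 ratio 4.22 to 5.20 over its alternatives). Without SPH93, an alternative chosen after seeing the data, 1 was called higher, SP1173. With a floor of 1 read, 4 were called higher and 2 lower, which by construction adds members with few reads. The median log2 ratio ran from 0.07 (median-of-ratios) to 0.19 (floor of 1 read). TMM and median-of-ratios scaling shifted every log2 ratio by -0.05 and -0.06. Depth limits members under 50 reads, and with 1 library per group the spread between pools is unknown. No paired analysis was possible because each group has 1 library.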

Other observations

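RefSeq lists 249 further genes under an SP, SPH, cSP or cSPH number among their synonyms, which the naming rule does not take. This list was drawn up after the tables had been seen. It gathers serine proteases and homologs known mostly by CG numbers, and a few genes of other kinds, such as the Mediator subunit gene skd. Of 63 measured, 1 was called higher and 1 lower, where 1.75% and 0.741% of all measured genes were. The median log2 ratio was 0.06. CG11529 had 81 reads in the ethanol library and 43 in the control library (2.01-fold, interval of the log2 ratio 0.46 to 1.58). CG32260 had 13 in the ethanol library and 40 in the control library (log2 ratio -1.53, interval -2.56 to -0.60). The 50 of these genes with a clip-domain number (cSP or cSPH) had 23 measured, 0 called higher and 1 lower, again CG32260, with a median log2 ratio of 0.08.

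Of the 72 under 50 reads, 44 had more reads in the ethanol library, 22 had more in the control library and 6 had equal counts. Of all 3434 genes under 50 reads, 45.8% had more reads in the ethanol library. Intervals lay above 1 for 9 of the 72, where 6.17% of all genes under 50 reads had one, and below 1 for 4, where 4.19% did. Beside CG18563, the neighbour of SPH93, those above 1 included CG16749 (19 reads in the ethanol library and 3 in the control library, ratio 6.76, interval 1.99 to 35.6), Erasp (26 in the ethanol library and 8 in the control library) and CG6041 (31 in the ethanol library and 12 in the control library). Among those below 1 was CG30187, with 9 reads in the ethanol library and 28 in the control library. These genes were named after their values were seen.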
